A study of Mus musculus with 2 samples.

Results

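The LSC* class is a group of cells from mouse corneal epithelium that the authors' deposited annotation marks with this name, the abbreviation LSC with an asterisk. Its members were taken as every cell whose deposited class is exactly LSC*, which gave 91 of 33885 cells. Of these, 85 lay in the dry eye library, where they were 0.518% of 16420 cells (exact Clopper-Pearson 95% interval 0.414% to 0.640%), and 6 lay in the control library, where they were 0.0344% of 17465 cells (0.0126% to 0.0748%). The source was 7 C57BL/6J mice, all male and 10 weeks of age, whose extra-orbital and intra-orbital lacrimal glands were removed on the right side, and the corneas were taken on day 9. The dry eye library pooled 6 right eyes, since 1 eye had been injured in surgery, and the control library pooled the 7 left eyes, which kept their glands. Both pools came from the same animals, so the control eye is the untouched eye of an operated mouse, and eye side and treatment cannot be told apart. Each condition is 1 droplet library of single cells, so no test between conditions or classes was made. The authors' annotation has 13 classes, 5 of them with an asterisk (LSC*, TAC1*, TAC2*, Wing* and Squam*), and the meaning of the asterisk is given by no source used here. The starred classes held 1793 dry eye cells, of which LSC* made up 4.74%. The class is described here within the dry eye library, beside LSC (592 dry eye cells), Wing* (446) and Squam* (217).

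The corneal epithelium is renewed from stem cells in the limbus, the ring between cornea and conjunctiva. Their daughters move inwards as transit amplifying and basal cells and then upwards as wing and squamous cells, while switching on the cornea's own keratin, Krt12. When the surface is hurt or dry, epithelial cells at its edge spread over the gap, make the keratins 6, 16 and 17, loosen their matrix with metalloproteinases and release cytokines of the interleukin-1 family. Limbal stem and progenitor cells of the mouse are known for Gpha2, a glycoprotein hormone subunit, and for Krt15, a keratin of basal cells.

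The values are counts of unique molecular identifiers (UMIs, each standing for 1 captured RNA molecule), summed over the cells of a class and given as CPM, counts per 1000000 UMIs of that class. Ratios between classes carry an exact 95% interval from the split of 2 counts, which covers counting error only. Classes were made from these same cells, so every ratio is a description. The 85 dry eye LSC* cells held 1617733 UMIs, with a median of 16145 and a range of 1403 to 70141 per cell, against medians of 5478.5 in LSC, 17483.5 in Wing* and 12466 in Squam*. The median share of UMIs on ribosomal protein genes was 22.3% in LSC* and 36.5% in LSC, and the median number of genes per cell was 3111 and 1739.5. These gaps in depth and in the share of ribosomal protein genes stand beside every comparison with LSC, and their part in it was not tested. No LSC* barcode occurred in both libraries. Among the 80 dry eye LSC* barcodes with at least 3000 UMIs, 30 (37.5%) had a partner in the class whose counts a chi-square test at 0.01 did not tell apart from theirs, in 15 of 3160 pairs. The median chi-square per degree of freedom was 4.37 over all pairs and 1.26 for each barcode's nearest partner. The share of such barcodes was 34.4% in LSC, 27.8% in Wing* and 37.3% in Squam*, and its source was not tested. Counting each pair once left 65 LSC* cells of that depth. Of 610 ratios of named genes, 26 then left their counting interval. Of the 422 that were past 2-fold before, 0 changed direction, and smaller ratios were not checked for this.

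The limbal part of the label was checked against the limbal markers, of which Gpha2 and Krt15 were low. Gpha2 (chr19:6226380-6227768, mm10, as are all gene positions here) stood at 27.8 CPM in LSC*, 3475 in LSC, 47.4 in Wing* and 61.8 in Squam*. The level in LSC* was 0.00801 times that in LSC (95% interval 0.00584 to 0.0107), below that in Wing* and Squam*. With each cell thinned to 3000 UMIs, 11.2% of LSC* cells had a Gpha2 UMI, against 91.8% of LSC, 5.87% of Wing* and 9.91% of Squam*, and unthinned the shares were 27.1%, 94.1%, 26.2% and 19.8%. The LSC* shares lay near those of Wing* and Squam*, at median depths of 16145, 17483.5 and 12466 UMIs, and no expression is read from them. Free RNA was not measured. Krt15 (chr11:100131758-100135928) was at 191 CPM in LSC*, 5996 in LSC, 1922 in Wing* and 5919 in Squam*, so LSC* was at 0.0319 times LSC (95% interval 0.0284 to 0.0356). Its few LSC* counts were uneven, with 78% of them in 5 cells, and the ratio was 0.00856 without the 5 cells of each class that held most Krt15. Apoe, a lipid carrier that is high in LSC here, was at 28.4 CPM against 2819.8, and Epas1, a hypoxia-inducible factor, at 13 against 429. Cyp2f2, Fndc1 and Ptn, at 71.9, 75.4 and 73.8 CPM in LSC, had no UMI in LSC*, which allows at most 0.0258, 0.0246 and 0.0251 times the LSC level with 3 counts as the limit.

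Over all genes with at least 50 UMIs in both classes together and at least 20 CPM in either, 5342 were compared with LSC. Of these, 755 (14.1%) were at least 2-fold higher in LSC* and 861 (16.1%) at least 2-fold lower, with a median log2 ratio of -0.11. Against Wing*, 4805 genes were compared, 266 (5.54%) were higher and 395 (8.22%) lower, with a median of 0.03. Against Squam*, 4853 were compared, 1260 (26%) were higher and 779 (16.1%) lower, with a median of 0.34. These shares are the background for the gene lists below. The splits against LSC and Squam* moved with the scaling. Leaving mitochondrial and ribosomal protein genes out of the totals gave 561 higher and 1890 lower of 6619 genes against LSC, and 1704 higher and 695 lower of 5263 against Squam*. Scaling by the median of ratios gave 867 higher and 741 lower against LSC, and 822 higher and 1041 lower against Squam*. On the genes compared, these scalings moved all log2 ratios by -0.30 and 0.11 against LSC, by 0.03 and -0.03 against Wing*, and by 0.22 and -0.34 against Squam*.

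As a list, the limbal stem and progenitor markers were mixed rather than low. Of 12 compared with LSC, 3 were at least 2-fold higher and 5 lower, with a median log2 ratio of -0.12, and of 11 compared with Wing*, 4 were higher and 2 lower, with a median of 0.92. Besides Gpha2 and Krt15, the lower members were Txnip, at 26 against 587 CPM, Lrig1, a brake on growth factor receptors, at 8.65 against 58.3, and Cd63, a tetraspanin, at 30.3 against 112. The higher members were Krt14, the basal keratin, at 15945 against 5051 CPM, Mt1, a metal-binding protein, at 4824 against 1642, and Socs3, the feedback inhibitor of cytokine signalling, at 63.7 against 11. Krt14 was higher in LSC* than in any of the other 12 classes. Some stem and basal cell regulators were within 2-fold of LSC. Trp63, the basal epithelial regulator, stood at 152 CPM in LSC* and 210.1 in LSC, and Sox9 at 94.6 and 80.8.

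Corneal identity genes were mixed against LSC and lower than in the upper layers. Krt12 (chr11:99415666-99422259) was at 7712 CPM in LSC*, 3947 in LSC, 16694 in Wing* and 19624 in Squam*, so LSC* lay between LSC and the starred upper layers. Per cell it ran from 129 to 32495 CPM with a median of 6461, against medians of 1660 in LSC, 15896 in Wing* and 19111 in Squam*, and the ranges overlapped. Pax6, the eye-field transcription factor, was lower in LSC* than in any other class, at 105 against 394 CPM in LSC, and Aldh3a1, a corneal crystallin and detoxifying enzyme, was also lowest, at 2246 against 3098 in LSC and 4484 in Wing*. Of 15 identity genes compared with LSC, 1 was at least 2-fold higher and 2 lower, with a median log2 ratio of 0.12 that turned to -0.18 without ribosomal and mitochondrial genes in the totals. Of 15 compared with Wing*, 0 were higher and 7 lower with a median of -0.998, and against Squam* 1 was higher and 6 lower of 15 with a median of -0.84, or 1 and 11 with a median of -1.18 under median-of-ratios scaling.

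The summed LSC* profile was most like Wing*. Over 8115 genes on the log scale, Pearson's r across genes was 0.942 with Wing*, 0.909 with TAC2*, 0.877 with Wing, 0.849 with LSC, 0.817 with Squam* and 0.531 with Immune. Genes are not independent replicates and all classes share 1 library, so the values only order the classes. Single cells were nearest the same classes. Over 2000 variable genes, and with their own class left out, 50 of 85 LSC* cells were most like Wing*, 32 like TAC2*, 2 like TAC2, 1 like Wing and 0 like LSC. With their own class among the choices, each cell was set against a class mean that includes it, so a match to its own class is no finding. On that count 83 of 85 LSC* cells were most like LSC* and 540 of 592 LSC cells most like LSC. Of 446 Wing* cells, 279 were most like Wing* and 54 most like LSC*, so the border between these classes was less sharp. On the authors' deposited map, the dry eye LSC* cells lay around a median position of 0.392 on the first and 3.67 on the second coordinate. The medians were -1.61 and 3.26 for Wing*, 4.31 and 4.05 for TAC2* and 1.96 and 0.315 for LSC, so LSC differed mainly on the second coordinate. Gpha2 and Krt15 were low and the profile was less like LSC than Wing*, but the limbal list as a whole was mixed. Its members summed to 25351 CPM in LSC*, mostly from Krt14, against 19633 in LSC and 14515 in Wing*. The gaps in depth and in the share of ribosomal protein genes also stand beside the likeness to LSC. No verdict on the limbal part of the label is drawn, and the class is called here by its deposited name alone.

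**Figure D1:**
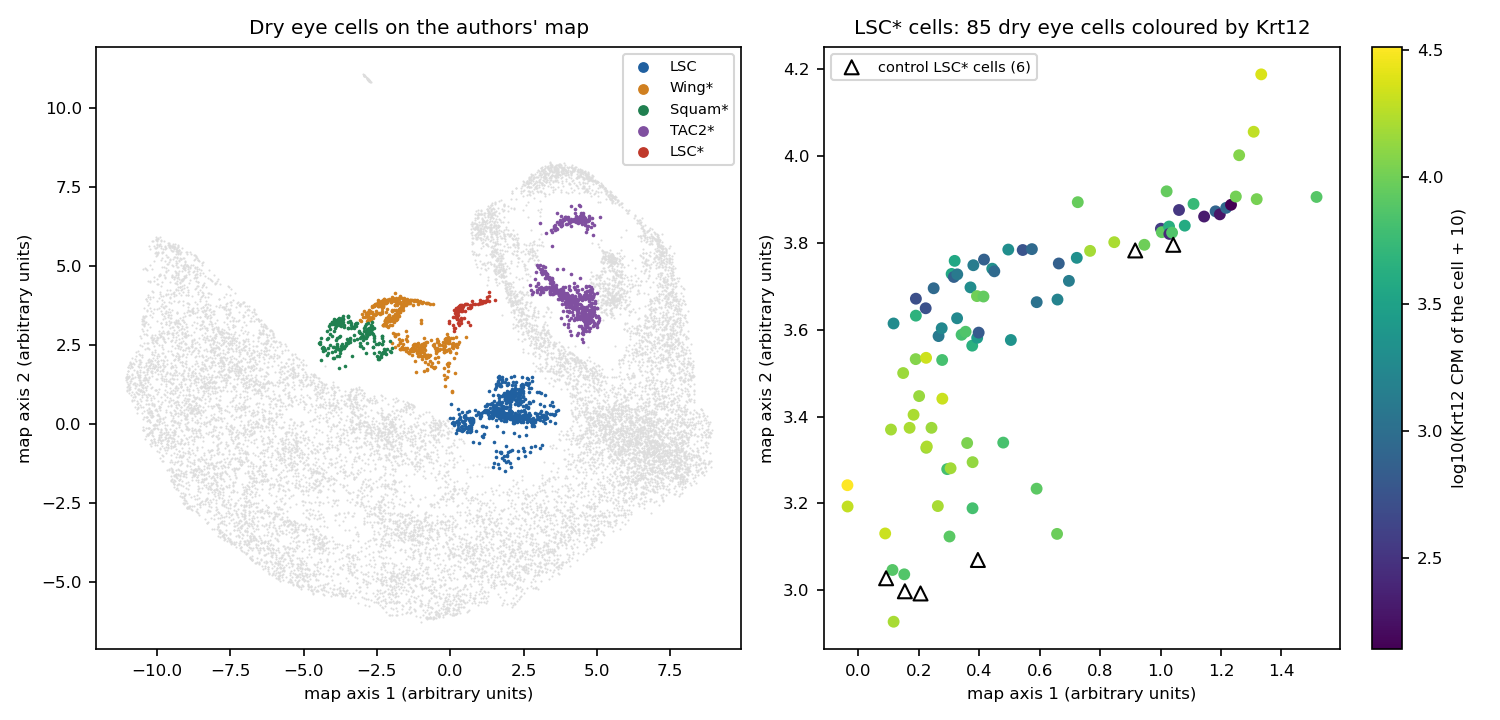
The authors' deposited map (arbitrary units), with the classes LSC, LSC*, TAC2*, Wing* and Squam* on the left, and on the right the 85 dry eye LSC* cells coloured by their Krt12 level and the 6 control LSC* cells as triangles. The dry eye LSC* cells form a patch between Wing* and TAC2*, and of the control cells 4 lie at its lower end and 2 on the right arm.

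The 7 markers given with the class were all higher in LSC* than in LSC, Wing* and Squam*, but they were chosen on these cells, so that is no finding. Together they summed to 3982 CPM in LSC*, 529 in Wing*, 57.5 in TAC2*, 16.8 in Squam* and 15 in LSC. S100a8 (chr3:90668978-90670035), a calcium-binding alarmin of neutrophils and stressed epithelium, made up most of it, at 3412 CPM in LSC*, 11.9 in LSC, 481 in Wing* and 14.3 in Squam*. It was seen in 67 of 85 cells, with a lowest cell at 0, a median of 1594 and a highest of 27656 CPM. The ratio over LSC was 286 (95% interval 217 to 384) and over Wing* 7.09 (6.83 to 7.36). S100a8 was thus the only given marker present in most LSC* cells, and 49.95% of its UMIs lay in 5 of them. Mmp13 (chr9:7272514-7283331), collagenase-3, stood at 149.6 CPM from 242 UMIs in 35 cells, against 1 UMI in LSC, 13.5 CPM in Wing* and none in Squam*. That is 11.1-fold over Wing* (95% interval 9.05 to 13.6). Immune, with 180.1 CPM, was the single class above LSC*, but it held 31 cells and 49982 UMIs in all, so its value rests on few counts. Mmp10 (chr9:7502352-7510240), stromelysin-2, was at 69.9 CPM in 28 cells, with no UMI in LSC or Squam* and 4.24 CPM in Wing*.

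Promoters of both metalloproteinases are shown because they hold the motif TGANTCA (N is any base), a wider form of the letters bound by AP-1 (Fos and Jun dimers). The stretch is the 120 bases before the RefSeq gene start on build GRCm38.p6, plus strand, 5′ to 3′. Capitals mark the motif, and the windows are chr9:7272394-7272513 for Mmp13 and chr9:7502222-7502341 for Mmp10.
Mmp13: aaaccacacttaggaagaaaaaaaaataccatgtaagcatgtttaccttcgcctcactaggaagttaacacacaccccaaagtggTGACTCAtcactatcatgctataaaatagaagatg
Mmp10: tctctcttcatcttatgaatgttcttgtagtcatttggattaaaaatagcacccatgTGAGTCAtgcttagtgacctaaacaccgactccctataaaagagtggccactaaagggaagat
In Mmp13 the motif covers bases 35 to 29 before the start, and in Mmp10 bases 63 to 57. TGANTCA was searched on both strands, and 2113 of 27025 genes with a promoter in the RefSeq table (7.82%) held it in the 250 bases before the start. It was found for 232 of 4262 genes compared with LSC (5.44%), for 64 of 587 genes at least 2-fold higher in LSC* (10.9%) and for 36 of 681 at least 2-fold lower (5.29%). Of the 7 given markers, 5 had a promoter in the table, and only Mmp13 and Mmp10 held the motif in 250 bases, while S100a8, Igfbp3 and Csta3 did not. The shares count every base at N, whereas the sites shown in Mmp13 and Mmp10 hold C and G there. A match describes letters only, and no binding was measured.

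The other given markers were seen in a minority of LSC* cells. Il24 (chr1:130882074-130887454), a cytokine of the interleukin-20 group, had 86 UMIs in 14 of 85 cells (53.2 CPM), none in LSC or Squam*, and 1.87 CPM in Wing*, a 28.5-fold difference (95% interval 17.7 to 47.8). Prl2c2 (chr13:12996125-13005383), a placental prolactin-family gene also called proliferin, had 176 UMIs in 19 cells (109 CPM), none in LSC or Squam*, and 8.65 CPM in Wing*. Its near-identical copy Prl2c3 was at 37.1 CPM, with none in LSC and 4.75 in Wing*, and the split of reads between such copies is uncertain. Csta3 (chr16:36210403-36217788 in RefSeq), a stefin that inhibits cysteine proteases, was at 75.4 CPM in 41 cells, none in LSC, 8.99 CPM in Wing* and 2.47 in Squam*. Igfbp3 (chr11:7206086-7213923), a carrier of insulin-like growth factors, was at 113 CPM in 33 cells, against 2.81 in LSC (ratio 40.2, 95% interval 22.5 to 79.3) and 10.8 in Wing*. Against a class with no UMI and 3 counts as the limit, Il24, Mmp10, Prl2c2 and Csta3 were at least 75.6-fold, 99.4-fold, 155-fold and 107-fold higher than LSC. A few cells carried much of each. The 5 cells richest in a gene held 68.6% of Il24, 59.7% of Prl2c2, 56.6% of Mmp10, 46.4% of Igfbp3, 40.1% of Mmp13 and 35.2% of Csta3 UMIs. Without the 5 richest cells of each class, the ratios over LSC were 557 for S100a8 and 71.7 for Igfbp3, and at least 132, 78.6, 70.3, 47.6 and 26.1 for Mmp13, Csta3, Prl2c2, Mmp10 and Il24.

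With every cell thinned to 3000 UMIs, 80 LSC* cells remained, and a S100a8 UMI was seen in 67.5% of them, 2.05% of LSC, 18.5% of Wing* and 4.25% of Squam* cells. The unthinned shares were 78.8%, 3.04%, 28.3% and 12.4%. For Mmp13 the thinned shares were 20% of LSC*, 0% of LSC and 3.61% of Wing* cells, and the unthinned 41.2%, 0.169% and 5.61%. Counted per cell, 13 of 85 LSC* cells had a UMI of none of the 7 markers, 58 had at least 2 of them, 33 at least 4 and 1 cell all 7. Genes with at least 50 UMIs in LSC* were ranked by the share of their summed class levels that lay in LSC*. The first 10 held 6 of the given markers, which were chosen on these cells, so their place there is no finding. These were Prl2c2 (92.5% of the CPM summed over 13 classes), Il24 (91.9%), Mmp10 (89.4%), Igfbp3 (86.6%), S100a8 (84.9%) and Csta3 (76.4%). The other 4 were Fam167a (91.9%), Csf3 (91.2%), the granulocyte growth factor, Prl2c3 (88.3%) and Fosl1 (77.4%), an AP-1 subunit of the Fos family.

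**Figure D2:**
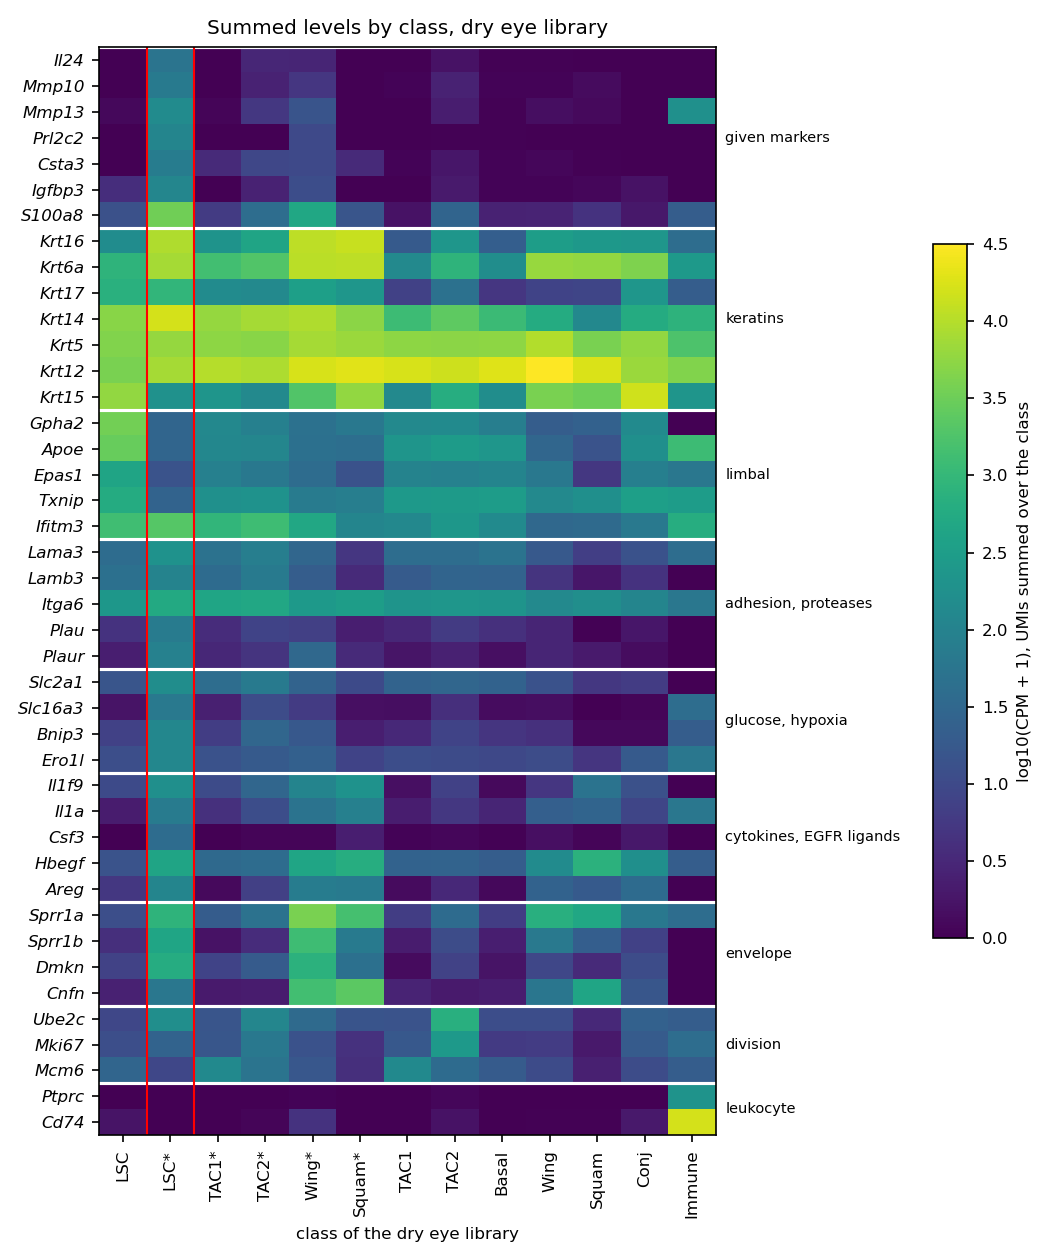
Level of 42 genes (rows) in the 13 dry eye classes (columns), as log10 of CPM plus 1, with the LSC* column framed. Brighter colours are higher levels, and the given markers are brightest in LSC*, except Mmp13, which reaches 180.1 CPM in Immune from few counts in 31 cells. Gpha2 and Krt15 are dark in LSC* and bright in LSC, and Krt16 is bright in LSC*, Wing* and Squam*.

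Stress keratins of the healing surface were high in LSC* and shared with the starred upper layers. Krt16 (chr11:100246091-100248902) was at 9031 CPM in LSC*, 154 in LSC, 11059.8 in Wing* and 13217 in Squam*, a 58.7-fold difference from LSC (95% interval 54.3 to 63.5). Every LSC* cell had a Krt16 UMI, with a range of 74.6 to 26967 CPM per cell and a median of 9385, whereas the median LSC cell had none. The ranges of the classes still overlapped, since the highest LSC cell reached 5747 CPM. Krt6a, its partner keratin, was at 7978 CPM in LSC*, 855 in LSC and 10813 in Wing*, and Krt6b at 2116, 202 and 5308. Krt17, another keratin of wounded epithelium, had another order, at 907 CPM in LSC*, 729.9 in LSC and 342 in Wing*, which is 1.24 times LSC and 2.65 times Wing*. Krt10, the keratin of skin, stood at 29.7 CPM. Of 5 stress and epidermal keratins compared with LSC, 3 were at least 2-fold higher and 0 lower, with a median log2 ratio of 3.22. Of 7 compared with Wing*, 1 was higher and 4 lower, with a median of -1.05.

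Envelope genes of terminal differentiation were above LSC and mostly below Wing*. Of 10 compared with LSC, 8 were at least 2-fold higher and 0 lower (median log2 ratio 5.74). Of 13 compared with Wing*, 0 were higher and 8 lower (median -1.51), and of 11 compared with Squam*, 4 were higher and 5 lower (median -0.80). The small proline-rich proteins, which are cross-linked under the cell membrane, were among the higher genes. Sprr1a was at 858 CPM in LSC*, 11 in LSC and 3900.3 in Wing*, and Sprr1b at 449, 3.05 and 1280.5. Sprr2d, with no UMI in LSC, was at 73.6 CPM in LSC* and 71 in Wing*, in 17 LSC* cells. Dmkn, a secreted keratinocyte protein, was at 616, 6.79 and 785. Late envelope genes were below the upper layers. Cnfn, cornifelin, was at 59.96 CPM against 1.64 in LSC, 1359.8 in Wing* and 2317 in Squam*, Lce3a at 1.85 against 1.41, 266 and 889, and Cdsn, the corneodesmosin of shed cells, at 1.24 against 54.5 in Wing*. Against LSC, Sprr1a, Sprr1b, Sprr2d, Dmkn and Cnfn passed the filter of 20 CPM only through LSC*. Against Wing*, Lce3a and Cdsn passed only through Wing*. The direction of these genes was thereby fixed, so the envelope counts and medians are in part set by the filter. Asprv1, the protease of the outer layers, stood at 177 CPM in LSC*, 2560.2 in Wing* and 18582 in Squam*. Slurp1, a secreted protein of the corneal surface, was at 818 CPM against 2976 in Wing*.

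Genes that cut matrix were mostly higher in LSC* than in LSC and Wing*. Of 10 matrix protease and plasminogen genes compared with LSC, 7 were at least 2-fold higher and 2 lower, with a median log2 ratio of 3.29, and of 9 compared with Wing*, 6 were higher and 1 lower, with a median of 1.61. Mmp10 and Mmp13, described above, are among them and were chosen on these cells as markers of the class. Plau, the urokinase that activates plasmin, was at 74.8 CPM in LSC*, 3.51 in LSC and 6.1 in Wing*, and its receptor Plaur at 94.6, 1.41 and 32.6. The ratios over Wing* were 12.3 (95% interval 9.08 to 16.6) and 2.9 (2.39 to 3.5). Adam8, a membrane-bound metalloproteinase, was at 55, 2.34 and 9.07 CPM. The inhibitors split. Serpinb2, which blocks urokinase, was at 38.9 CPM against 9.6 in LSC, whereas Timp3, a metalloproteinase inhibitor of the matrix, was at 1.85 against 46.4. Against LSC, Mmp10, Mmp13, Plau, Plaur, Adam8 and Serpinb2 passed the filter of 20 CPM only through LSC*, and Timp3 only through LSC. Against Wing*, the same held for Mmp10, Mmp13, Plau and Adam8. Their direction was thereby fixed, so these counts and medians are in part set by the filter and by the given markers.

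Adhesion and matrix genes of the wound edge had more members higher than lower against LSC and Wing*. Lama3, a laminin chain of the basement membrane, was at 197 CPM in LSC*, 37.9 in LSC and 29.9 in Wing*, which is 5.18 times LSC (95% interval 4.27 to 6.3) and 6.57 times Wing* (5.63 to 7.67). Lamb3, another laminin chain, was at 101, 45.2 and 20.3 CPM. Itga6, a laminin receptor subunit of hemidesmosomes, was at 531 CPM against 239.6 in LSC and 263 in Wing*, and Cd44, the hyaluronan receptor, at 435 against 75.9 and 241. Fn1, fibronectin, went the other way, at 8.65 against 84.8 CPM in LSC. Of 17 genes of this list compared with LSC, 9 were at least 2-fold higher and 1 lower (median log2 ratio 1.15), or 7 and 1 (median 0.85) without ribosomal and mitochondrial genes in the totals. Of 15 compared with Wing*, 11 were higher and 0 lower (median 1.17). Some genes of the cytoskeleton, which is in none of the lists, were also higher. Crip1, a LIM domain protein, was at 3244 CPM in LSC*, 419.6 in LSC, 362 in Wing* and 39.3 in Squam*. Tubb6, a beta tubulin, was at 143, 3.51 and 13.1 CPM in the first 3, Msn, the membrane linker moesin, at 104, 19.7 and 10.2, and Actn1, which cross-links actin and was picked after its values were seen, at 66.8, 27.4 and 6.19. Markers of a mesenchymal change were mixed. Vim, vimentin, had 2 UMIs in the class and Snai2 was at 43.3 CPM against 72.4 in LSC, although S100a4 was at 159 against 29.3.

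**Figure D3:**
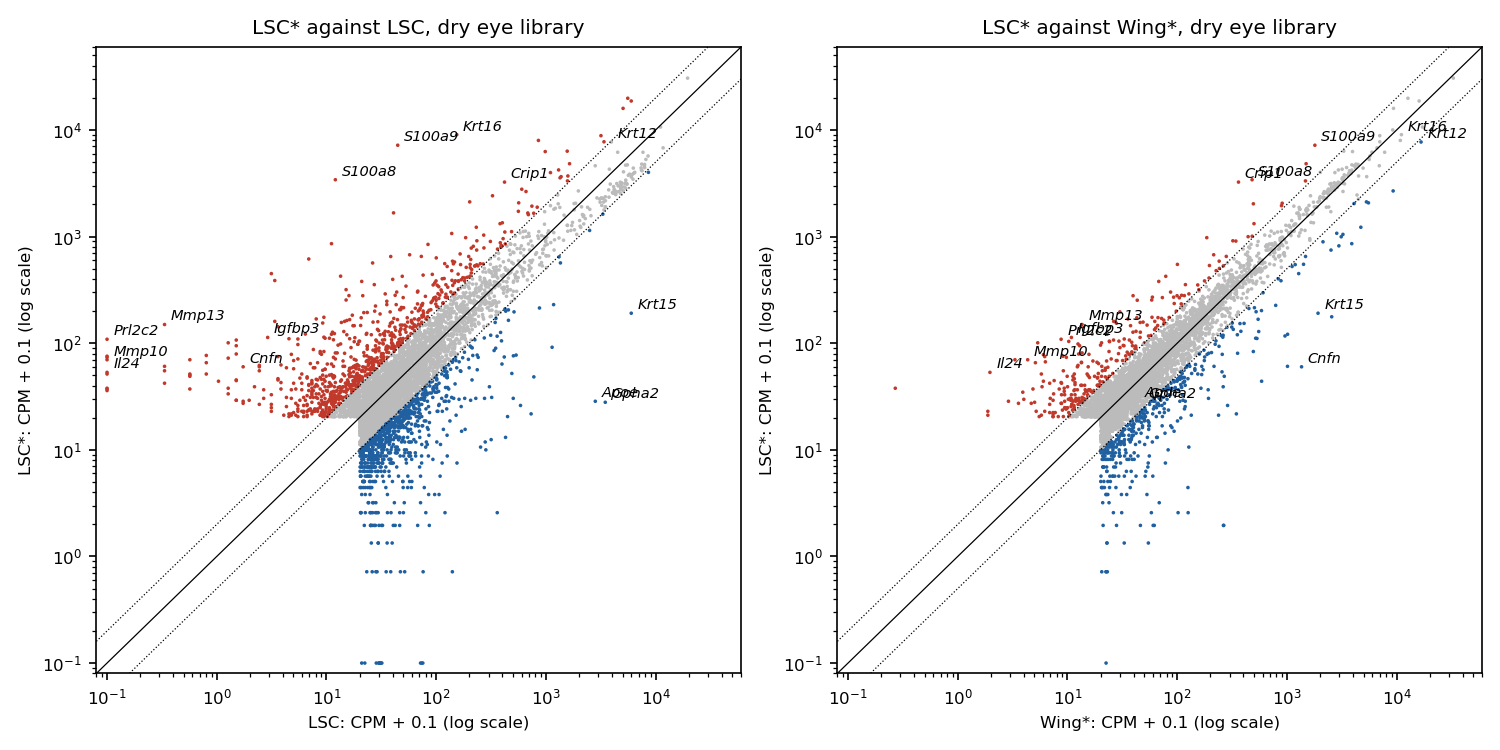
CPM plus 0.1 of each gene in dry eye LSC* (vertical, log axis) against LSC on the left and Wing* on the right (horizontal, log axis), with genes at least 2-fold higher in red and at least 2-fold lower in blue. Against LSC 755 genes are red and 861 blue, and against Wing*, where the cloud is narrower, 266 are red and 395 blue.

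Of 17 cytokine genes of the IL-1, IL-20 and IL-6 families and related genes, 8 could be compared with LSC. All 8 were at least 2-fold higher in LSC*, with a median log2 ratio of 5.21. Members near 0 in LSC, such as Il24, Csf3 and Il1a, passed the filter only through LSC*. Their direction was thereby fixed, so this count and median are in part set by the filter. Against Wing*, 4 of 9 were higher and 2 lower, with a median of 0.71. Il1a, the alarm cytokine stored in epithelial cells, was at 72.3 CPM in LSC*, 1.17 in LSC, 50.9 in Wing* and 89.6 in Squam*. Il1f9, which encodes IL-36 gamma, was at 175, 9.37, 107 and 197 CPM in the same order, so neither was higher in LSC* than in Squam*. Csf3 (chr11:98701263-98703629), which drives the making of neutrophils, had most of its summed class level in LSC*, at 37.7 CPM from 61 UMIs in 15 cells, with none in LSC and 0.17 CPM in Wing*, at a ratio of 222 (95% interval 59 to 1878). Tslp, which acts on dendritic cells, was at 127 CPM against 11.2 in LSC, with 72.2% of its UMIs in 5 cells. Il18 was at 119.9, above LSC (25.5) and below Wing* (353).

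Among feedback genes of NF-kB, the transcription factor switched on by interleukin-1, 6 of 9 compared with LSC were at least 2-fold higher and 0 lower (median log2 ratio 1.42), and 3 of 10 were higher and 1 lower than in Wing* (median 0.68). Tnip3, an inhibitor of that pathway, was at 101 CPM in LSC*, 1.17 in LSC and 5.26 in Wing*. Ptgs2, the inducible prostaglandin synthase, was at 51.3 CPM, with no UMI in LSC and 11.4 CPM in Wing*. Ptgs2 and Socs3 were under 20 CPM in LSC and passed the filter only through LSC*, as did Ptgs2 against Wing*. Their direction was thereby fixed, so the counts and medians of this list are in part set by the filter. Nfkbia, the inhibitor that holds NF-kB in the cytoplasm, was at 206 against 47.3 in LSC. Chemokines were sparse. Only Cxcl16 could be compared with LSC, at 70.5 against 26.7 CPM, and all 48 UMIs of Cxcl2, which draws neutrophils, came from 4 cells. Of 5 cytokine receptor genes compared with LSC, 2 were higher and 1 lower: Il13ra1 was at 82.8 CPM against 27.9 and Osmr at 45.1 against 19.9, whereas Il6st, the shared chain of the IL-6 family, was at 9.89 against 53.4.

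Ligands of the epidermal growth factor receptor were above LSC and near Wing*. Hbegf was at 425 CPM in LSC*, 13.4 in LSC, 436 in Wing* and 642 in Squam*, and Areg at 110.03, 4.45 and 76 in the first 3. The receptor itself, Egfr, was at 55 CPM in LSC* and 86.4 in LSC. Of 8 genes of this list, 4 were at least 2-fold higher and 1 lower than in LSC (median log2 ratio 1.21), and of 7 compared with Wing*, 0 were higher and 1 lower (median 0.38). Immediate early and heat shock genes followed the same order, with 10 of 17 higher and 0 lower than in LSC (median 1.23) and 1 of 18 higher and 1 lower than in Wing* (median 0.03, and -0.01 with median-of-ratios scaling). Fosl1, an AP-1 subunit, was at 42 CPM in LSC*, 6.78 in Wing* and 0.234 in LSC, and Junb, another, at 811 against 218 in LSC. Arg1, which splits arginine, and Pthlh, a parathyroid hormone relative, were also above LSC, at 387 against 3.28 and 379.5 against 20.8 CPM, and stood at 293 and 67.8 in Wing*.

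S100a9, the partner with which S100a8 forms calprotectin, was at 7191 CPM in LSC*, 44.5 in LSC, 1798 in Wing* and 197 in Squam*, in 73 of 85 cells. It was 162 times LSC (95% interval 139.98 to 187) and 4 times Wing* (3.91 to 4.09). Both genes are also abundant in neutrophils, whose defining markers are given below. Other antimicrobial genes went both ways. Lcn2, which traps bacterial siderophores, was at 0.618 CPM against 38.4 in LSC, and Defb1, a defensin, was at 0.11 times LSC, while Slpi, a protease inhibitor of mucosal fluids, was at 29.1 against 1.41. Of 8 antimicrobial genes compared with LSC, 4 were at least 2-fold higher and 2 lower (median log2 ratio 2.24), and against Wing* 3 of 7 were higher and 3 lower (median 0.47). Stefins and cystatins, inhibitors of cysteine proteases, were mostly higher than in LSC, with 7 of 9 at least 2-fold higher and 0 lower (median 2.21), while 3 were higher and 1 lower of 9 compared with Wing* (median 0.22). Stfa3 was at 675 CPM in LSC*, 57.2 in LSC and 215 in Wing*, and Csta1 at 650.3, 38.4 and 758. These genes are near-identical copies in a cluster, so their single values are uncertain. Both prolactin family copies compared with LSC, Prl2c2 and Prl2c3, were higher (median 6.50). With no UMI in LSC, they passed the filter only through LSC*, which set their direction. Of 8 serpins, 3 were higher and 3 lower than in LSC, and their median of 0.28 turned to -0.02 without ribosomal and mitochondrial genes in the totals.

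Glycolysis genes had more members higher than lower against each comparison class. Of 15 compared with LSC, 12 were at least 2-fold higher and 0 lower (median log2 ratio 1.90), of 15 compared with Wing*, 7 were higher and 0 lower (median 0.84), and of 16 compared with Squam*, 15 were higher and 1 lower (median 1.92). The medians over all genes were -0.11, 0.03 and 0.34. Slc2a1, the main glucose transporter of epithelium, was at 160.1 CPM in LSC*, 14.5 in LSC and 26.3 in Wing*, which is 6.09 times Wing* (95% interval 5.15 to 7.21). Slc16a3, which exports lactate, was at 65.5, 0.703 and 5 CPM, and Pfkp, a phosphofructokinase of the committed step, at 78.5, 8.9 and 15.6. Targets of the hypoxia response showed 6 of 7 at least 2-fold higher and 0 lower than in LSC (median 3.16) and 6 of 8 higher and 1 lower than in Wing* (median 1.35). Bnip3, a mitophagy receptor, was at 122 CPM in LSC*, 6.32 in LSC and 16.7 in Wing*, Ero1l, an oxidase of protein folding, at 121, 11 and 22.9, and Ndrg1 at 318, 15 and 157. Egln3, an oxygen-sensing hydroxylase, was at 190.4 CPM, above LSC (76.6) and below Wing* (302). Against LSC, Slc2a1, Slc16a3, Pfkp, Bnip3, Ero1l and Ndrg1 passed the CPM filter only through LSC*. Against Wing*, the same held for Slc16a3, Pfkp and Bnip3. Their direction was thereby fixed, so the counts and medians of both lists against LSC and Wing* are in part set by the filter.

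Cell cycle genes split by phase. All 14 genes of the G2 and M phases compared with LSC were at least 2-fold higher (median log2 ratio 2.32), and so were 12 of 14 against Wing* (median 1.64). Of 8 S phase genes, 1 was higher and 4 lower than in LSC (median -1.11), and 0 were higher and 0 lower of 4 compared with Wing* (median 0.11). Ube2c, which marks mitotic cyclins for breakdown, was at 169 CPM in LSC*, 7.96 in LSC, 35.4 in Wing* and 117 in TAC2*, in 33 of 85 cells. Mki67, the marker of cycling cells, was at 26.6 CPM in LSC*, 11.2 in LSC and 63 in TAC2*, in 16 cells, with 69.8% of its UMIs in 5. Mcm6, a helicase subunit of DNA replication, was at 8.04 CPM against 28.3 in LSC. Against LSC, Ube2c and Mki67 passed the filter of 20 CPM only through LSC*, and Mcm6 only through LSC. Their direction was thereby fixed, so the split by phase is in part set by the filter. Inhibitors of the cycle were also present. Cdkn1a, which encodes p21, was at 397 CPM in LSC*, 40.1 in LSC and 393 in Wing*, whereas Cdkn1b, which encodes p27, was at 18.5 against 77.8 in LSC, the lowest of the 13 classes. Of 10 such genes, 4 were higher and 1 lower than in LSC (median 0.64).

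Junction genes were above LSC, with 11 of 20 at least 2-fold higher and 1 lower (median log2 ratio 1.20), and close to Wing*, with 2 of 21 higher and 3 lower (median -0.37). Gjb2, the connexin of stressed epithelium, was at 354 CPM in LSC*, 27.2 in LSC and 119 in Wing*. Gja1, the connexin of basal cells, was at 548, 204 and 100.4, and Cldn4, a tight junction claudin, at 123 against 11.7 in LSC. Surface proteins of the Ly6 family had 4 of 9 higher and 0 lower than in LSC (median 0.96), with Ly6d, a marker of stratified epithelium, at 566 CPM in LSC*, 26.2 in LSC, 366 in Wing* and 13.7 in Squam*. In the insulin-like growth factor system, Igfbp3 was the only gene at least 2-fold higher than in LSC of 5 compared (median -0.46), and against Wing* 3 of 6 were higher and 0 lower (median 1.28). Igfbp7, a secreted binding protein, was at 77.9 CPM in LSC*, 104 in LSC and 5.93 in Wing*, and Igfbp2 at 45.1, 212 and 11.1.

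Several signalling and defence lists had more genes lower than higher in LSC* against LSC. Of 7 Wnt pathway genes, 1 was at least 2-fold higher and 4 lower (median log2 ratio -1.39). Wnt10a was at 3.71 CPM against 96.7, and Wnt6 had no UMI against 31.2 CPM, both being secreted Wnt ligands. Wnt4 was at 304 against 443. Of 10 TGF-beta and activin genes, 4 were higher and 4 lower (median 0.32), or 1 and 4 (median 0.02) without ribosomal and mitochondrial genes in the totals, and Id3, an inhibitor of basic helix-loop-helix factors, was at 11.7 against 279.7 CPM. With the same genes left out, the median of 8 Notch genes was -0.18 and that of 3 YAP-type targets -1.23 with 3 lower. With them counted, 1 Notch gene was higher and 3 lower of 8 (median 0.12), and 0 YAP-type targets were higher and 1 lower of 3 (median -0.93). Of 8 antioxidant genes of the Nrf2 type, 1 was higher and 3 lower (median -0.56). Gsta3, a glutathione transferase, was at 12.4 CPM against 317, and Akr1b8, an aldose reductase relative, at 279 against 15.9. Interferon response genes were 0 higher and 2 lower of 5 against LSC (median -0.33), 0 and 3 of 6 against Wing* (median -0.69), and 0 and 8 of 11 against Squam* (median -3.76). Ifi27l2a, which follows interferon, had 1 UMI in LSC* and stood at 34.9 CPM in LSC. The integrated stress list had 2 genes higher and 2 lower of 5 (median -0.95), with Phgdh, the entry enzyme of serine synthesis, at 15.5 against 183 CPM. Conjunctival and simple keratins had 1 higher and 2 lower of 4 (median -2.53), with Krt4 at 2.47 against 360.1 and Krt13 at 651 against 198, 72.6% of the latter from 5 cells.

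**Figure D4:**
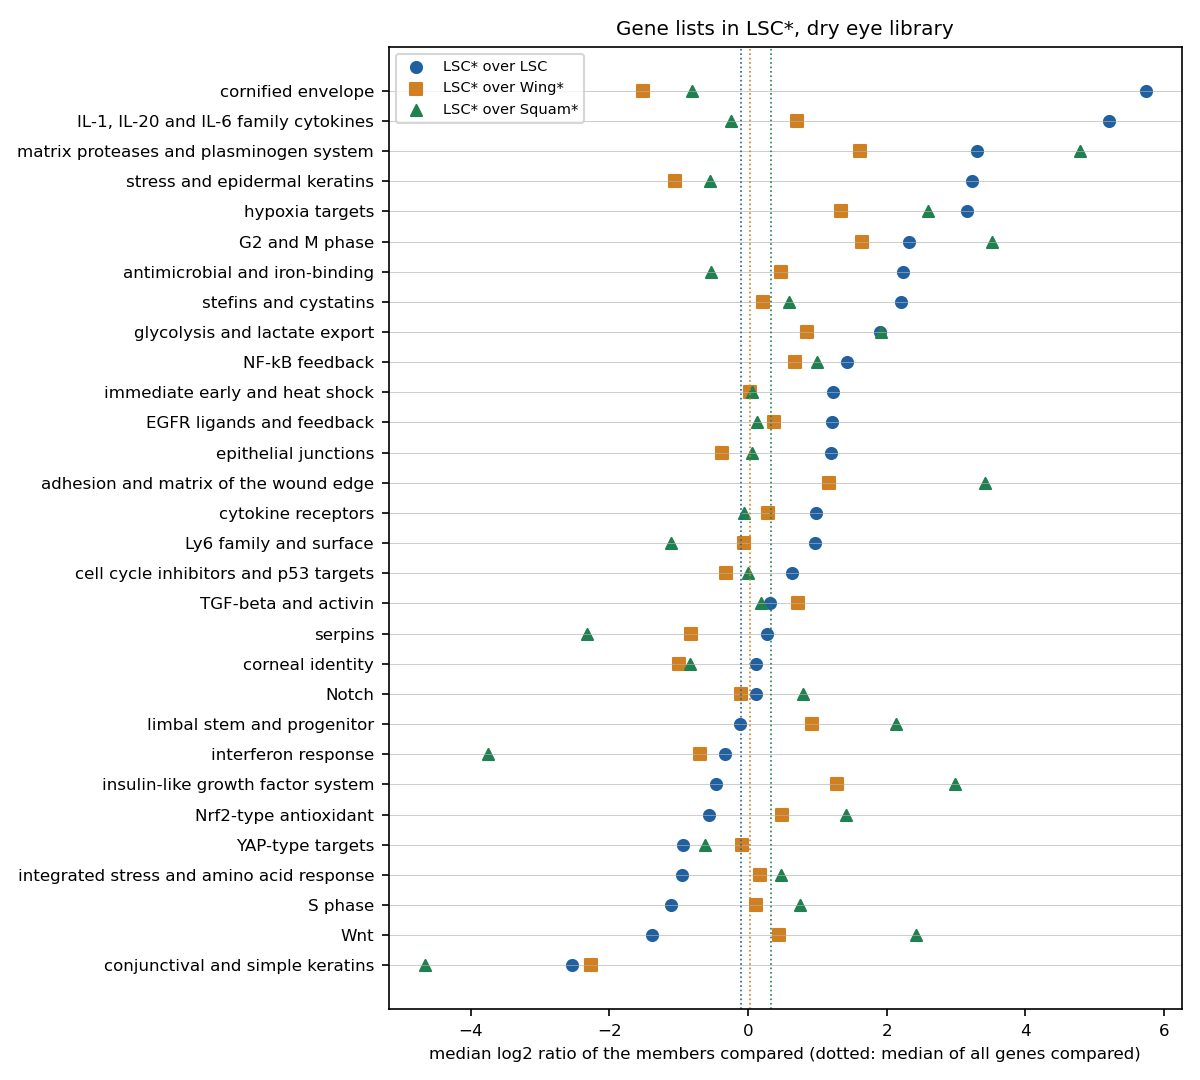
Median log2 ratio of LSC* over LSC, Wing* and Squam* for each gene list in dry eye, with dotted lines at the medians over all genes (-0.11, 0.03 and 0.34). Cornified envelope genes stand at 5.74 against LSC and -1.51 against Wing*, while matrix protease, hypoxia and G2 and M phase genes lie above 0 against all 3 classes. Against LSC, the medians of these lists are in part set by the CPM filter.

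LSC* cells differed among themselves along Krt12. Of the 80 cells with at least 3000 UMIs, the 26 with the lowest Krt12 share (at most 1966 CPM) were set beside the 26 with the highest (at least 10190.5 CPM), with 28 cells between them. This is a split of a range, chosen after earlier values were known, and not a pair of cell types. Median depth was 15681 UMIs in the low and 18404.5 in the high cells. Of 2146 genes with enough counts, 98 (4.57%) were at least 2-fold higher and 103 (4.8%) lower in the low Krt12 cells. Other corneal genes were low in the same cells. Aldh3a1 stood at 251 CPM in low and 4149.9 in high cells, Slurp1 at 49 and 1956, and Aqp5, a water channel of the corneal epithelium, at 394 and 4216. By summed UMIs, on which a few cells rich in a gene weigh, the given markers stood higher in the low Krt12 cells. Mmp13 was at 316 CPM in low and 39.9 in high cells, Mmp10 at 145 and 13.3, Prl2c2 at 194 and 1.9, Igfbp3 at 251 and 41.8, and S100a8 at 7455 and 1573. Il24 differed less, at 69.7 and 49.4. Krt17 and genes of the cytoskeleton were placed likewise, with Krt17 at 1938 and 217 CPM, Crip1 at 6288 and 1354, and Msn at 205 and 38. The stress keratins Krt16 (9232 and 8433) and Krt6a (7344 and 9593) and the basal Krt14 (18638 and 13868) stood within 2-fold in both.

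Across those 80 cells, Spearman's rho was 0.85 between Krt12 and Aldh3a1, -0.74 between Krt12 and Crip1 and -0.60 between Krt12 and Krt17. It was 0.62 between Mmp10 and Mmp13 and 0.64 between Igfbp3 and Prl2c2. These cells share 1 library, and many zeros and the depth of each cell enter the values, so they are given as a description. With agreeing barcodes counted once, 65 cells gave 0.86, -0.77, -0.57, 0.60 and 0.69 in the same order. Between Krt12 and the given markers, rho over the 80 cells was weaker. It was -0.53 for Igfbp3, -0.50 for Prl2c2, -0.44 for Mmp13, -0.34 for Mmp10, -0.24 for S100a8 and -0.09 for Il24.

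**Figure D5:**
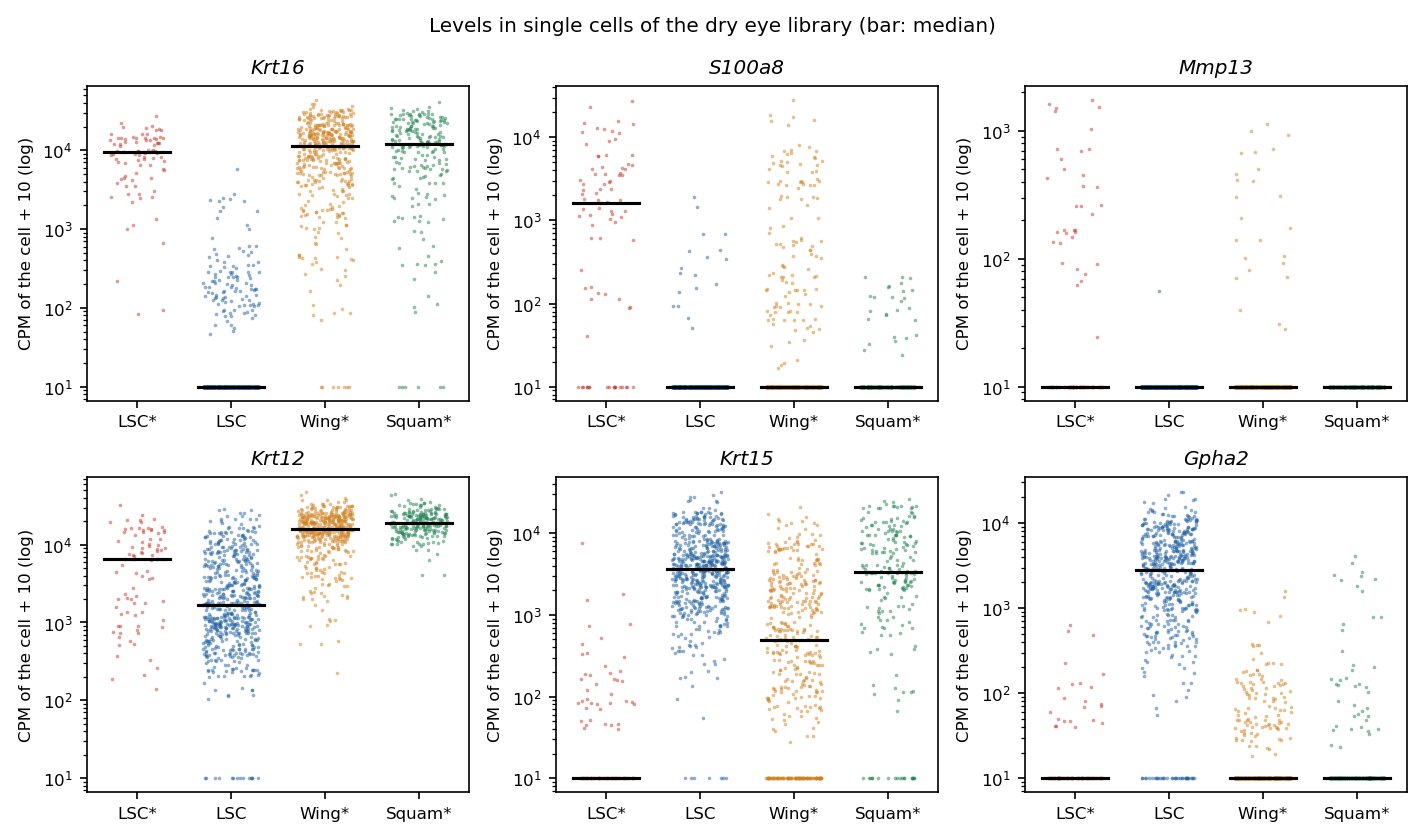
Level of 6 genes in single dry eye cells of LSC*, LSC, Wing* and Squam* (CPM plus 10 on a log axis, 1 point per cell, bar at the median). In LSC* the median is 9385 CPM for Krt16 and 6461 for Krt12, 1594 for S100a8, and 0 for Mmp13, Krt15 and Gpha2, with cells spread over the whole range.

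The 6 control LSC* cells, with 62391 UMIs and a median of 8725.5 per cell, had no common profile. By likeness to the class profiles, 2 were nearest Basal, 2 Conj and 2 LSC. They held no UMI of Il24, Mmp10, Mmp13 or Prl2c2, 1 of Csta3, 5 of Igfbp3, 20 of S100a8, 83 of Krt16, 923 of Krt12, 373 of Krt15 and 38 of Gpha2. Ifi27l2a, with 1 UMI in the 85 dry eye cells, had 64 in them. Cells of 1 library are not replicates and 6 are few, so these counts are given side by side and no difference between control and dry eye within the class is read from them.

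Markers of leukocytes were at or near 0 in dry eye LSC*. Of 8 leukocyte markers 7 had no UMI, and the list summed to 0.618 CPM (1 UMI) against 7983 in Immune. Of the neutrophil markers 5 were in the table, 2 of them at 0, and these summed to 6.80 CPM (11 UMIs, in 6 cells). The sums were 0.469 in LSC, 8.56 in Wing*, 92.6 in Squam* and 200.1 in Immune, the last from few counts in a class of 49982 UMIs. Macrophage and dendritic cell markers summed to 12.4 CPM with 10 of 13 at 0, against 49178 in Immune, and T and NK cell markers to 2.47 CPM with 8 of 9 at 0. These values stand beside S100a8, S100a9, Mmp13 and Csf3, which leukocytes can also express. Stromal markers were at 0, and melanocyte and endothelial markers had 1 UMI each. Other lists were not at 0. Schwann cell markers summed to 39.6 CPM, all of it Mbp, against 58.8 in LSC, goblet cell markers to 1.85 against 27.2, eyelid epidermis and hair follicle markers to 33.4 against 49.4, and meibomian and sebocyte markers to 81 against 13.1 in LSC and 62 in Wing*, in 61 of 85 cells and mostly from the lipid enzymes Scd1 and Soat1. Of the 85 LSC* cells, 4 were among the 5% of dry eye cells with the most UMIs, and no doublet caller was run.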

How the data were processed

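Single-cell RNA was counted in 1 control and 1 dry eye library. The submitters' processing notes name Cell Ranger 6.0.1, Seurat 4 and mm10, with no role or order; no source used here says how cells were filtered and classed. The deposited counts are whole UMI counts per gene and cell (17891 genes, 33885 cells, highest value 7968, none below 0), and the classes come from the authors' deposited metadata. The map coordinates are the authors' deposited score per cell, in arbitrary units. Library totals were 191493194 UMIs in control and 207030777 in dry eye, with medians of 8248 and 9086.5 per cell, and 74 barcodes occurred in both libraries.

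Counts of a class were summed and divided by the class total. Genes needed 50 UMIs over both classes and 20 CPM in either, and a ratio counted as higher or lower past 2-fold. Where a class had 0 UMIs, 3 counts took its place, as a limit. Intervals are exact Clopper-Pearson intervals at 95%. With 1 library per condition there is no test and no p-value, and nothing says that cells are independent. Cells were thinned to 3000 UMIs where shares of cells are compared, and shallower cells were left out.

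Genes were named by rule: the 12 highest and 12 lowest ratios against LSC, Wing* and Squam*, the given markers, and the 2 highest and 2 lowest members of each of 45 gene lists. Added to these were the 10 genes with most of their summed class level in LSC*, among genes with at least 50 UMIs in LSC*. Predicted, mitochondrial, ribosomal protein and haemoglobin genes were left out. A further 69 genes were added after their values were seen, among them Krt6a, Krt17, Lama3, Lamb3, Itga6, Cd44, Il1a, Il1f9, Junb, Nfkbia, Slpi, Pfkp, Ero1l, Egln3, Gja1, Wnt4, Pthlh, Aldh1a3, Fscn1 and Vim. The class, the lists and these rules were chosen with earlier results of these data known. Agreement of barcodes was judged by a chi-square test at 0.01 on genes pooled to at least 10 counts. The scripts were tested on simulated data. Gene coordinates are from GENCODE M21 and promoters from RefSeq GRCm38.p6. Python 3.11.15, NumPy 2.4.6, SciPy 1.17.1, pandas 2.3.3 and Matplotlib 3.10.9 were used. Values of some genes are not reported here.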

Additional observations from a re-analysis of the deposited data

How the results depend on the processing

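Counts of genes past 2-fold depended on filter, fold, depth and scaling. With no filter on low counts, 1325 genes were higher and 2970 lower in LSC* than LSC, 1682 and 1316 than Wing*, and 3274 and 1401 than Squam*. With a 4-fold limit, the counts were 257 and 259, 76 and 108, and 393 and 381. With cells thinned to 3000 UMIs, the higher counts were 412, 163 and 369, and the lower count against Squam* was 428, since fewer genes then reach the filter. Without the 5 cells holding most of each gene, 169 genes were higher and 607 lower than in Wing*. With at least 100 UMIs, 813 genes were higher than in Squam*. Median-of-ratios scaling gave 822 higher than in Squam*, and leaving mitochondrial and ribosomal genes out of the totals gave 1890 lower than in LSC. Counting agreeing barcodes once, an alternative chosen after seeing the data, gave 735 and 900 against LSC, 273 and 398 against Wing*, and 1203 and 796 against Squam*. Among starred cells only, the share of LSC* was 4.74%. The 610 comparisons of named genes gave 6100 values under 10 alternatives. A change of direction was counted only for the 422 comparisons past 2-fold in the main setting. Smaller ratios that crossed 1 were not counted, and alternatives that change only the filter leave a gene's ratio as it is. Among the 422 comparisons, 3 values changed direction. Asprv1 over LSC was 0.929 without the 5 richest cells, and Ifi27l2a over LSC was 1.11 with the control LSC* cells counted in. Phgdh over Wing* was 1.02 after thinning. The cause was not tested. No paired analysis was possible because each group is 1 library. With 85 cells, genes under 3 counts in the class could not be told from 0.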

Other observations

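Some secreted and metabolic genes that belong to none of the gene lists were also high in the dry eye LSC* cells. Prg4, which encodes the surface lubricant lubricin, was at 51.3 CPM in LSC*, 5.68 in Wing*, 23.2 in TAC2* and 0.469 in LSC, in 28 of 85 cells. Csn3, a milk casein, was at 79.1 CPM in LSC*, 12.5 in Wing* and 1.41 in LSC, in 37 cells. Aldh1a3, an enzyme that makes retinoic acid, was seen in 83 of 85 LSC* cells and stood at 1669 CPM in LSC*, 1266 in Wing*, 858 in Squam* and 40.8 in LSC. Fscn1, which bundles actin in cell protrusions, was at 155 CPM in 67 LSC* cells, against 97.5 in TAC2*, 27.7 in Wing* and 9.14 in LSC. Aldh1a3 and Fscn1 were picked after their values were seen.

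Genes of the outer corneal layers that were lower in LSC* than in Squam* included Psca, a surface protein of the Ly6 type, at 60.6 CPM against 7707, and Nccrp1, at 43.9 against 2618. Also lower than in Squam*, and not assigned to a layer or cell type here, were Adgrf1, an adhesion receptor, and Itgam. Both had no UMI in LSC* and stood at 142 and 117 CPM in Squam*. Among genes of LSC, Cdo1, which breaks down cysteine, was at 21.6 CPM in LSC* against 733 in LSC, and Abi3bp, a matrix protein, at 2.47 against 120.2.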
